A study of Mus musculus with 2 samples.

Results

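The genes described here are 49 interferon induced genes, measured in T cells of mouse ileum. They were chosen by symbol from the gene list of the series, 28 as genes best known from the type I interferon response and 21 as genes best known from the interferon gamma response, out of 55357 genes in all. All 49 symbols are listed in the files of both libraries, and 47 had a UMI in each. By design, phages of healthy or of SAP mice were first given to dendritic cells, and gut T cells of GF mice were cultured with them afterwards. T cells that met an antigen-presenting dendritic cell were marked on their surface by the FucoID fucosyl-biotin reaction. The libraries are labelled only Control and SAP, with 1 library for each, and the labels do not spell out SAP or GF, give no strain or age, and do not state whether the sequenced cells were the marked fraction. Both libraries share the tissue, the GF source of the T cells and the culture with dendritic cells, so neither shows T cells cultured without dendritic cells. The question asked of these genes is how far their transcripts differ between the libraries and between kinds of T cells.

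Interferons are secreted proteins that warn cells of infection. Type I interferons signal through the receptor chains Ifnar1 and Ifnar2 to a complex that includes Stat2 and Irf9 and binds a DNA element called the ISRE, while interferon gamma signals through Ifngr1 and Ifngr2 and acts on genes with a DNA element called the GAS. Many genes answer to both, so the division into type I and gamma members is one of emphasis. T cells of the gut epithelium are themselves a source of interferon gamma, and the induced proteins block viruses, attack the vacuoles of intracellular microbes or cut and transport peptides for MHC class I.

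The promoters show the overlap between both lists in their letters. RefSeq promoter windows of build GRCm38.p6 were matched for 36 of the 49 members, and the 250 bases before each start were searched on both strands for an ISRE motif, which is GAAA and GAAA with 2 bases of any kind between them, and the GAS motif TTCNNNGAA, counting matches that overlap each other. The ISRE motif was found in 14 of 22 type I members (63.6%) and in 10 of 14 gamma members (71.4%), against 3.46% of 27025 genes with a window. The GAS motif was found in 4 of the 22 type I members (18.2%) and in 8 of the 14 gamma members (57.1%), against 8.13% of all genes. A match describes the letters only and is not evidence of binding. The 200 bases before the start are printed for 8 members that carry the results below, 5′ to 3′ on the strand of the gene, with motif matches in capitals.
Isg15, chr4:156200819-156201018, minus strand: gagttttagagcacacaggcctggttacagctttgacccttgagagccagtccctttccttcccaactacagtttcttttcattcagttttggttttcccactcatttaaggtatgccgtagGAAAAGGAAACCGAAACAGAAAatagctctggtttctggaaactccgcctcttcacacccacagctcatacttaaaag
Ifit1, chr19:34640689-34640888, plus strand: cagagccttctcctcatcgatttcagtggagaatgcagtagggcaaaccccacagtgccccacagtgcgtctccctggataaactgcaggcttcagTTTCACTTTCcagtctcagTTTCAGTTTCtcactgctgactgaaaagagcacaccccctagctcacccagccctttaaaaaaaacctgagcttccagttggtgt
Ifit3, chr19:34583329-34583528, plus strand: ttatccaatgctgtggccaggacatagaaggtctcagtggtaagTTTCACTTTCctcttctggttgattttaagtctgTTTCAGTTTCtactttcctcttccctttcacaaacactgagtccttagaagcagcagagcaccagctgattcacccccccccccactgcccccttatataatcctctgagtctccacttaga
Bst2, chr8:71537473-71537672, minus strand: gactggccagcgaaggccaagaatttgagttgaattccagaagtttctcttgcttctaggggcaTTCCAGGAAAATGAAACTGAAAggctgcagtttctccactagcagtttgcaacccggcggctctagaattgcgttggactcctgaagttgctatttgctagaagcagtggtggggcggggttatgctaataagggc
Gbp2, chr3:142620463-142620662, plus strand: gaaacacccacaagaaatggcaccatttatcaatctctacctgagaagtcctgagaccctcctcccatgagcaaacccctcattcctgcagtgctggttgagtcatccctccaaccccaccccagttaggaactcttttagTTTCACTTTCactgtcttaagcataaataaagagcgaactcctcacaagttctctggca
Igtp, chr11:58199356-58199555, plus strand: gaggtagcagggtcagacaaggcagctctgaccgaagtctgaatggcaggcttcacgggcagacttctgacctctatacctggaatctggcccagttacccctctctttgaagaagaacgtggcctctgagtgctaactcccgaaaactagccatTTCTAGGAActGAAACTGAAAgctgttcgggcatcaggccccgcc
Irf1, chr11:53769814-53770013, plus strand: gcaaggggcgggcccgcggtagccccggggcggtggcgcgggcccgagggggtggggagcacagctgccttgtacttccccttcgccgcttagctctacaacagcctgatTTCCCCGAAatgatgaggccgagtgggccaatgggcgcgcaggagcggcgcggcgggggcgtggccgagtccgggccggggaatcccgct
Psmb9, chr17:34187331-34187530, minus strand: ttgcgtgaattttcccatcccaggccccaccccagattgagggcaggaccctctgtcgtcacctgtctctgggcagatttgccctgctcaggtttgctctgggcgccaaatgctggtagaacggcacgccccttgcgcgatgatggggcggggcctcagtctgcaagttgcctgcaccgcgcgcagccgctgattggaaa
The Isg15 window holds 3 overlapping ISRE matches in a row. Ifit1 and Ifit3 each hold 2 separate ISRE matches, which like that of Gbp2 lie on the other strand. In Bst2 a GAS match runs into a pair of overlapping ISRE matches. Igtp holds 1 GAS match just before 1 ISRE match, Gbp2 holds 1 ISRE match alone, and Irf1 holds 1 GAS match alone. No letters of either motif stand in the Psmb9 window.

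The Control library held 5737 barcodes and the SAP library 5203, of which 5523 and 4847 were kept as T cells, that is, barcodes with at least 2 unique molecular identifiers (UMIs) over 7 genes of the T cell receptor and CD3. Their summed UMIs were 18836315 and 18240920, with a median of 3185 UMIs per cell in Control and 3481 in SAP, and 6 barcodes occur in both libraries. The T cells were 5523 of the 5665 Control barcodes and 4847 of the 5028 SAP barcodes that passed the filter on cell quality. Nearly all barcodes that passed it thus met this low limit for the labelled cell type. Markers of other cell types were present too: the B and plasma cell list stood at 873 UMIs per 1000000 in Control and 113 in SAP with Mzb1 at 0 in both, the myeloid and dendritic list at 80.7 and 74.5 with Clec9a, Adgre1 and C1qa at 0 in both, and the epithelial list at 107 and 95.4 with all 10 genes found. Levels below are counts per 1000000 UMIs of the summed T cells (CPM) with an exact Poisson 95% interval, and ratios carry an exact conditional binomial 95% interval. Tags in this assay are meant to come from the 3′ end of a transcript, so CPM were not divided by length. How evenly different genes are captured was not tested. Each group is 1 library, so no difference has a replicate check and none was tested: the intervals cover counting error only. In summed UMIs, fewer expressing cells and fewer transcripts per cell cannot be told apart.

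Among the type I members, transcripts came mainly from 3 genes. Isg15, a ubiquitin-like protein that is joined to other proteins during infection, stood at 249 CPM (242 to 256) in Control and 219 (212 to 226) in SAP and made up 31.5% and 28.9% of all type I UMIs. Ifi203, a DNA-binding protein of the p200 family, stood at 127 CPM in Control and 134 in SAP. Ifi27l2a, a small membrane protein, stood at 121 CPM in Control and 102 in SAP. Without these 3 genes the other 25 type I members summed to 295 CPM in Control and 304 in SAP, so the low part of the list was close to equal in both libraries. In each T cell the type I list gave a median of 2 UMIs in both libraries, and 80.8% of Control and 81.0% of SAP cells had at least 1.

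The antiviral effectors with intermediate levels were Trim30a, Bst2, Zbp1 and Isg20. Trim30a, a TRIM family protein, stood at 41.1 CPM in Control and 45.9 in SAP. Bst2, or tetherin, which holds budding virus particles at the cell surface, stood at 44.8 and 41.3 CPM. Zbp1, a sensor of Z-form nucleic acid, stood at 37.5 and 40.5 CPM, and Isg20, an exonuclease, at 25.4 and 25.9 CPM. The transcription factors of the list were as modest: Irf7, which drives type I interferon genes, stood at 29.7 and 30.6 CPM, and Stat2 at 24.8 and 28.6 CPM.

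The genes most often used as a sign of a strong type I response were rare. The 5 IFIT members, proteins that bind viral RNA, summed to 206 UMIs in Control and 213 UMIs in SAP. The OAS members, which make a second messenger when they meet double-stranded RNA, summed to 278 and 243 UMIs, most of it Oas1a with 187 and 156 UMIs. Mx1, a GTPase that blocks influenza-like viruses, gave 15 and 18 UMIs. Usp18, the protease that removes Isg15, gave 16 UMIs in each library. Rsad2, or viperin, gave 130 and 123 UMIs, and Rtp4, a zinc finger protein, 226 and 197. Oas2 and Ifi44 had no UMI in either library, which at this depth allows up to 0.159 CPM in Control and 0.164 in SAP. In all, 19 type I members stayed under the limit of 20 CPM in 1 library and 50 UMIs over both that was set for a comparison of single genes.

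Gamma members were more even and more widely detected. The list summed to 1188 CPM in Control and 1192 in SAP, and 92.7% and 93.8% of cells had at least 1 UMI of it. Psmb8, a catalytic subunit of the immunoproteasome, stood highest at 299.9 CPM (292 to 308) in Control and 280.2 (273 to 288) in SAP, or 25.2% and 23.5% of the list. Irf1, a transcription factor induced by interferon gamma, stood at 155 and 149 CPM. The other antigen processing members lay lower: Psmb9, a second immunoproteasome subunit, at 85.7 and 90.7 CPM, the peptide transporter chains Tap2 at 83.2 and 86.0 CPM and Tap1 at 70.2 and 68.3 CPM, and Nlrc5, the activator of MHC class I genes, at 41.4 and 43.3 CPM.

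The guanylate-binding proteins, GTPases that break open pathogen vacuoles, summed to 286 CPM in Control and 306 in SAP. Gbp8 (81.7 and 93.6 CPM), Gbp4 (74.4 and 75.1 CPM), Gbp7 (42.8 and 47.7 CPM) and Gbp9 (37.1 and 40.3 CPM) made up most of it, and Gbp2 stood at 22.3 and 20.1 CPM. Gbp3, Gbp5 and Gbp6 lay between 6.26 and 11.6 CPM in both libraries. The immunity-related GTPases, which act on the same vacuoles, summed to 109 CPM in Control and 104 in SAP, led by Igtp at 49.3 and 47.2 CPM and Irgm1 at 22.4 and 22.0 CPM. Socs1, the feedback inhibitor of the receptor kinases, stood at 58.1 and 63.9 CPM. Tgtp1 and Tgtp2 share 75.9% and 73.7% of the 50-base stretches at their 3′ ends, and Gbp6, Oas1a and Ifit3 share 39.0%, 56.1% and 14.9% with Gbp10, Oas1g and Ifit3b. The levels of these genes, and the division of UMIs between partners, are therefore uncertain.

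**Figure D1:**
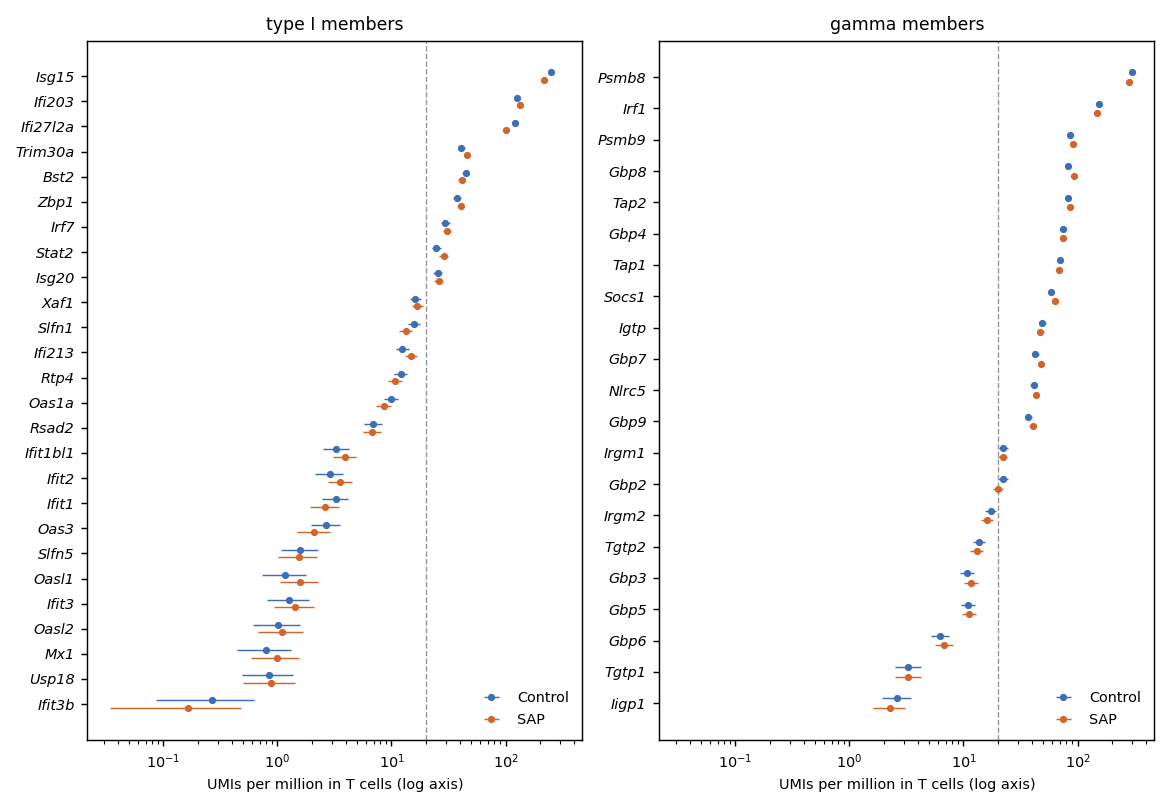
Level of each member with a UMI in the T cells of the Control and SAP libraries, in CPM on a log axis, with type I members on the left and gamma members on the right. Points are the 1 library of each group and bars are exact Poisson 95% intervals, which cover counting error only, and the dashed line marks 20 CPM. Isg15 and Psmb8 lead their lists, and most type I members lie under the dashed line.

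Between the libraries the members were close together. The summed type I list had a SAP over Control ratio of 0.957 (0.935 to 0.979) and the gamma list of 1.0 (0.984 to 1.02). Of the 23 members that could be compared, 0 were higher in SAP by 1.2-fold or more, against 10.2% of 5624 genes, and 0 were lower by as much, against 1.80%. The median ratio was 1.03 over 9 type I members and 1.02 over 14 gamma members, and 1.04 over all genes compared. Of these members, 5 had an interval wholly above 1, against 29.9% of all genes compared, and 3 wholly below 1, against 11.8%.

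Over all T cells summed, Ifi27l2a, Isg15 and Psmb8 were lower in SAP. Ifi27l2a had 2275 UMIs in Control and 1858 UMIs in SAP, a ratio of 0.843 (0.793 to 0.897), which was 0.797 after trimmed mean (TMM) scaling and so past 1.2-fold. Isg15 had 4694 and 3994 UMIs, a ratio of 0.879 (0.842 to 0.917), and 0.830 after TMM scaling. Psmb8 had 5649 and 5112 UMIs, a ratio of 0.934 (0.90 to 0.971). Higher in SAP were Stat2 at 1.15 (1.01 to 1.31), Trim30a at 1.12 (1.01 to 1.23), Gbp8 at 1.15 (1.07 to 1.23), Gbp7 at 1.11 (1.01 to 1.23) and Socs1 at 1.1 (1.01 to 1.19). In log2 these 5 ratios were 0.20, 0.16, 0.20, 0.15 and 0.14 in that order. TMM scaling lowers every SAP over Control ratio by 0.08 in log2, so it brings these 5 nearer to equal. Their intervals after scaling were not computed. The lowest of the other 15 was Gbp2 at 0.90 (0.780 to 1.04) and the highest Gbp9 at 1.09 (0.978 to 1.21), each with an interval that holds 1. The 8 guanylate-binding proteins summed gave 1.07 (1.03 to 1.11), or 0.10 in log2 before the TMM shift of 0.08. Without barcodes that carry 2 or more UMIs of B, plasma, myeloid, dendritic, epithelial or erythroid markers, 3 of 23 members were higher by 1.2-fold or more (Stat2 at 1.2, Gbp7 at 1.21 and Socs1 at 1.24), against 9.98% of 5462 genes in those cells, and 1 was lower (Ifi27l2a at 0.803), against 2.11%.

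**Figure D2:**
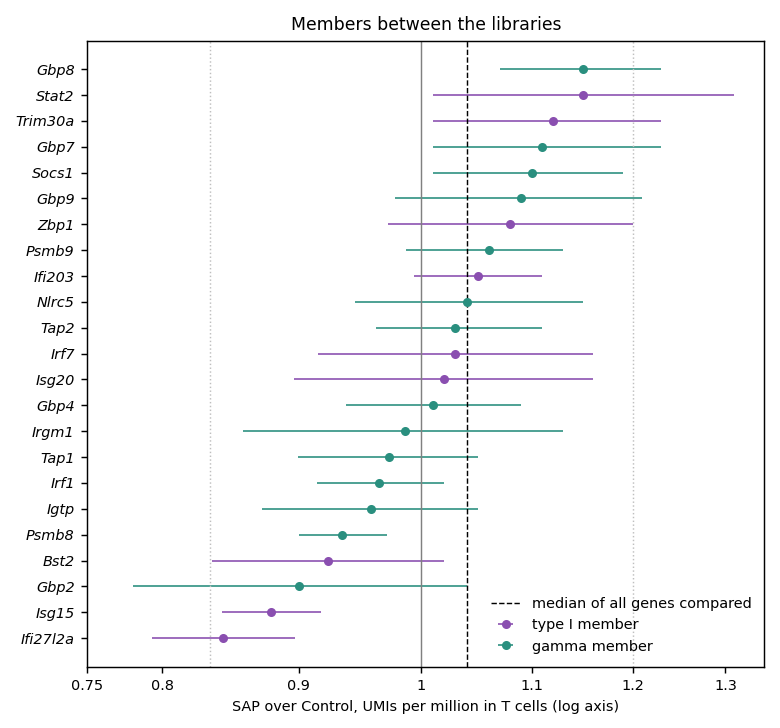
SAP over Control ratio of CPM in T cells for the 23 members compared, on a log axis, with exact conditional binomial 95% intervals that cover counting error only. The dashed line is the median of all genes compared at 1.04 and dotted lines mark 1.2-fold in each direction, and every member lies between the dotted lines, with Ifi27l2a lowest at 0.843.

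The kinds of T cells differed more than the libraries did, and mainly in Ifi27l2a. Cells were placed in gates that do not overlap by their UMIs of lineage genes. The Trdc gate, with the constant chain of the gamma delta receptor and no Cd4 or Cd8b1, held 2359 Control and 2129 SAP cells. The Cd8b1 gate, marking CD8 alpha-beta cells, held 559 and 555 cells, the gate with Cd8a only 1489 and 1214, the Cd4 gate 189 and 166, and 927 and 783 cells fell in none. Without cells holding 2 or more UMIs of B, plasma, myeloid, dendritic, epithelial or erythroid markers, the Trdc gate kept 1600 and 1471 cells. The Cd8a only gate then kept 1078 and 842, the Cd8b1 gate 497 and 504 and the Cd4 gate 173 and 150, so such markers were uneven between gates. The alpha-beta receptor genes Trac and Trbc2 stood at 285 and 924 CPM in the Control Trdc gate and at 265 and 898 in the SAP Trdc gate. Trgc1, of the gamma chain, stood at 195 and 196 CPM in the Cd8a only gate, against 629 and 645 in the Trdc gate and 48.4 and 28.1 in the Cd8b1 gate. Gates set on 1 UMI can therefore mix kinds of T cells, and how far they do was not tested. Median UMIs per cell lay between 3175 and 3367 over the 4 gates in Control and between 3498 and 3682 in SAP. The summed type I list stood at 1350 CPM in the Control Cd4 gate and 1535 CPM in the SAP Cd4 gate, at 974 and 1012 CPM in the Cd8b1 gate, at 715 and 674 CPM in the Trdc gate and at 688 and 668 CPM in the Cd8a only gate. The gamma list moved far less, from 1141 CPM in the SAP Cd8a only gate to 1270 CPM in the SAP Cd8b1 gate. In the Cd4 gate the type I sum was 1.75 times (1.64 to 1.87) that of the other T cells in Control and 2.10 times (1.97 to 2.24) in SAP, and without Ifi27l2a 1.22 times (1.12 to 1.33) and 1.40 times (1.29 to 1.53).

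Among the 4 gates, Ifi27l2a followed the order Cd4, Cd8b1, then the other 2 gates in both libraries. In Control it stood at 537 CPM (484 to 593) in the Cd4 gate, 216 (196 to 237) in the Cd8b1 gate, 65.1 (58.3 to 72.6) in the Cd8a only gate and 63.2 (57.9 to 68.8) in the Trdc gate. In SAP it stood at 626 CPM (566 to 690.4), 186 (168 to 205), 64.4 (57.3 to 72.2) and 44.1 (39.7 to 48.8) in the same order. The lower 2 gates overlap in their counting intervals in Control and not in SAP. The Trdc, Cd8b1, Cd8a only and Cd4 gates held 528, 424, 327 and 381 of the 2275 Ifi27l2a UMIs of Control. In SAP they held 366, 389, 297 and 401 of 1858 UMIs. Cells of no gate held the remaining UMIs, and their level was not computed. The order therefore does not show that high levels are limited to the Cd4 and Cd8b1 gates. The other T cells in each gate ratio include the cells of no gate. Against the other T cells of its library, the Cd4 gate was 5.14 times higher (4.59 to 5.74) in Control and 7.56 times (6.75 to 8.45) in SAP. Without cells holding 2 or more UMIs of other cell type markers these ratios were 4.17 and 4.35, and without the highest cell of the gate 4.66 and 6.71. The B and plasma markers stood at 11282 CPM in the Control Cd4 gate, where 14 cells had 2 or more such UMIs, and at 60.9 CPM in the SAP Cd4 gate. In the same gate the natural killer and innate lymphoid list, which holds genes that Cd4 T cells also make, stood at 497 CPM in Control and 596 in SAP, against 139.9 and 147 in all T cells, and the proliferation list at 338 and 186 CPM, against 107 and 110.4. The part of these lists in the Ifi27l2a ratios was not tested.

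Few other members passed 1.5-fold in both libraries in a gate. In the Trdc gate 0 of 23 members were higher and 1 lower, Ifi27l2a at 0.379 and 0.293 of the other T cells, against 0.587% and 3.56% of all genes. In the Cd8b1 gate 1 was higher, Ifi27l2a at 1.97 and 2.04, against 0.889%, and 0 were lower, against 7.97%. In the Cd8a only gate 0 were higher, against 0.729%, and 1 lower, Ifi27l2a at 0.462 and 0.562, against 0.871%. In the Cd4 gate 3 were higher, against 3.65%, and 0 lower, against 14.9%. These 3 were Ifi27l2a, Zbp1 at 1.57 (1.12 to 2.16) and 2.04 (1.5 to 2.71), and Gbp2 at 2.39 (1.65 to 3.37) and 2.19 (1.42 to 3.24). Zbp1 rested on 41 and 51 UMIs there and Gbp2 on 36 and 27, and Zbp1 was at 1.47 in Control without its highest cell, under 1.5-fold.

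Other members differed less between gates. Isg15 was highest in the Control Cd4 gate (359 CPM, against 298 in Cd8b1, 228 in Cd8a only and 212 in Trdc). In SAP the Cd8b1 gate came first (332 CPM, against 301 in Cd4, 201 in Trdc and 177 in Cd8a only), and the intervals of Cd8b1 and Cd4 overlap. The SAP over Control ratio of Isg15 was 0.778 (0.711 to 0.852) in the Cd8a only gate and 0.839 (0.692 to 1.02) in the Cd4 gate. It was 0.947 (0.885 to 1.01) in the Trdc gate and 1.12 (0.998 to 1.25) in the Cd8b1 gate, so Isg15 was not lower in SAP in every gate. The Trdc, Cd8b1, Cd8a only and Cd4 gates held 37.7%, 12.5%, 24.4% and 5.43% of the Isg15 UMIs of Control. In SAP they held 41.7%, 17.5%, 20.5% and 4.83%. Cells of no gate held the remaining UMIs, and the ratio of Isg15 between libraries was not computed for them. Psmb9 was 1.40 (1.21 to 1.61) and 1.33 (1.15 to 1.52) times higher in the Cd8b1 gate than in the other T cells, Nlrc5 1.35 and 1.29 times, and Psmb8 1.22 and 1.23 times. The other antigen processing members had intervals that hold 1 there, with Tap1 at 1.07 (0.891 to 1.27) and 0.943 (0.784 to 1.13) and Tap2 at 1.13 in both libraries. Gbp8 went the other way, at 1.24 (1.12 to 1.37) and 1.25 (1.14 to 1.38) times the other T cells in the Trdc gate and 0.594 (0.412 to 0.830) and 0.693 (0.498 to 0.941) in the Cd4 gate. Igtp was lowest in the Cd8a only gate, at 0.667 (0.564 to 0.785) and 0.733 (0.616 to 0.867) of the other T cells.

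Among members under the limit for single comparisons, 5 were picked after their values were seen. Slfn1, of the Schlafen family that holds back T cell growth, was 2.80 (2.12 to 3.66) and 2.71 (2.0 to 3.63) times higher in the Cd8b1 gate, 2.66 (1.73 to 3.93) and 4.19 (2.79 to 6.09) times higher in the Cd4 gate, and at 0.495 and 0.344 of the other T cells in the Trdc gate. Iigp1, an immunity-related GTPase, had 19 of its 49 Control UMIs and 12 of its 41 SAP UMIs in the Cd4 gate, which holds 3.42% of the T cells in each library. That is 16.2 times (8.60 to 29.7) and 11.4 times (5.28 to 23.0) the level in the other T cells. Without cells holding markers of other cell types it was 9.52 times (4.49 to 19.2) and 9.21 times (3.69 to 21.2). In the SAP Cd8a only gate it had no UMI. Gbp3 was 3.57 (2.25 to 5.44) and 2.71 (1.59 to 4.34) times higher in the Cd4 gate, on 25 and 19 UMIs. Irgm2 was 1.39 (1.11 to 1.74) and 1.62 (1.28 to 2.06) times higher in the Trdc gate and at 0.563 and 0.566 of the other T cells in the Cd8b1 gate. Xaf1, which acts against an inhibitor of cell death, was 1.57 (1.13 to 2.15) and 1.59 (1.16 to 2.15) times higher in the Cd8b1 gate.

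**Figure D3:**
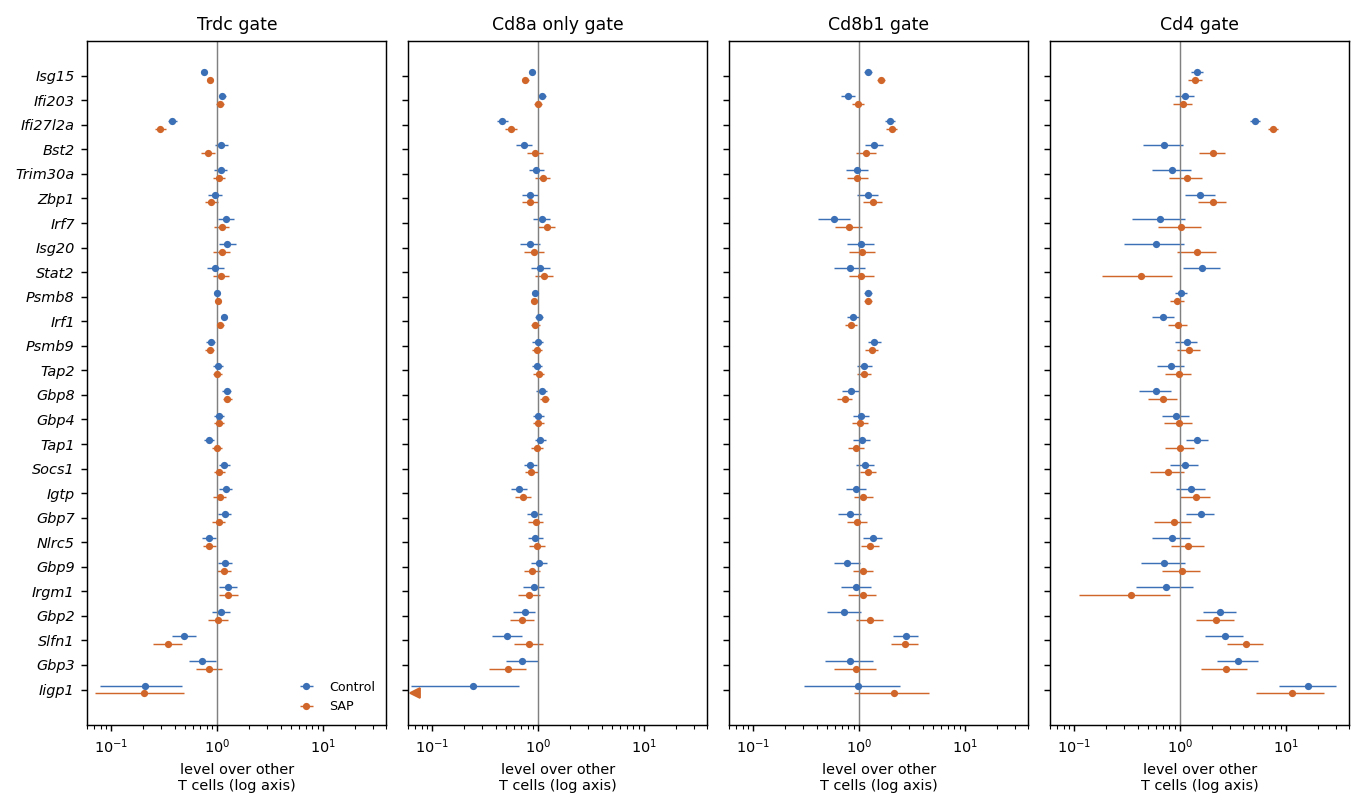
Level of the 23 members compared, and of Slfn1, Gbp3 and Iigp1, in each gate over that in the other T cells of the same library, on log axes, with exact conditional binomial 95% intervals for counting error. Points are the Control and SAP libraries and the arrow marks Iigp1 with no UMI in the SAP Cd8a only gate. Ifi27l2a stands right of 1 in the Cd4 and Cd8b1 gates and left of 1 in the other gates, in both libraries.

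In single cells, Ifi27l2a was uneven. In Control 904 of 5523 T cells (16.4%) had a UMI of it, and 137 cells held 50% of all its UMIs. In SAP 735 of 4847 cells (15.2%) had one, and 105 cells held 50%. In the Cd4 gate 47.6% of Control and 41.0% of SAP cells had a UMI, against 10.6% and 10.1% in the Trdc gate. After thinning each cell to 1000 UMIs these shares were 26.5% (20.2 to 33.6, exact Clopper-Pearson) and 19.9% (13.9 to 27.0) in the Cd4 gate and 4.65% (3.82 to 5.6) and 3.90% (3.10 to 4.84) in the Trdc gate. Cells with 5 or more UMIs were 25 of 189 in the Control Cd4 gate and 22 of 166 in the SAP Cd4 gate, against 22 of 2359 and 12 of 2129 in the Trdc gate. The variance over the mean, not taken on the unthinned counts above, was 1.99 in Control and 2.03 in SAP for Ifi27l2a. For Isg15 it was 1.65 and 1.57, against a median of 1.06 over all genes compared in Control. Psmb8, of a higher level, had 1.05 and 1.03. No kind of cell in these libraries is known to lack these transcripts, so how many of the single UMIs are free RNA was not tested.

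**Figure D4:**
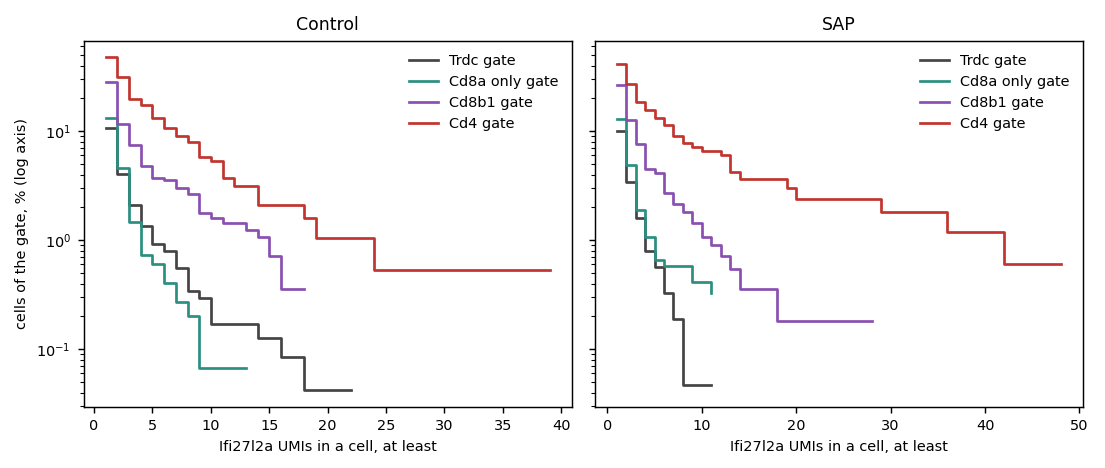
Share of the cells of each gate, in percent on a log axis, with at least the number of Ifi27l2a UMIs on the horizontal axis, for the Control library on the left and the SAP library on the right, not thinned. The Cd4 gate lies above the other gates at every number in both libraries and reaches 39 UMIs in a Control cell and 48 in a SAP cell. Of the other gates, the highest cell had 22 UMIs in Control, in the Trdc gate, and 28 in SAP, in the Cd8b1 gate.

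Cells with a transcript of the IFIT family held more of the other members too. At least 1 Ifit UMI was found in 176 Control cells (3.19%) and 169 SAP cells (3.49%), and in 1.05% (0.791 to 1.37) and 0.916% (0.658 to 1.24) of cells after thinning. In these cells the other 23 type I members summed to 1219 CPM in Control and 1279 in SAP, against 765 and 723 CPM in the other T cells, a ratio of 1.59 (1.49 to 1.71) and 1.77 (1.66 to 1.89). The gamma list had a ratio of 1.25 (1.17 to 1.33) and 1.24 (1.17 to 1.32). The median ratio was 1.67 in both libraries over 9 type I members and 1.17 and 1.22 over 14 gamma members, against 1.01 and 0.991 over all genes compared. In both libraries 6 of 23 members were 1.5-fold higher or more, against 0.338% of all genes: Bst2, Zbp1, Trim30a, Ifi27l2a, Stat2 and Gbp2. None of the 23 was as much lower in both, against 0.320%. The largest of these was Zbp1 in SAP, at 100.2 CPM against 37.8 CPM, a ratio of 2.65 (2.07 to 3.36). Under the limit, and picked after their values were seen, Ifi213, of the p200 family, was 4.29 (2.87 to 6.22) and 3.79 (2.63 to 5.33) times higher, Rtp4 4.0 (2.63 to 5.89) and 3.11 (1.94 to 4.79) times and Gbp6 3.23 (1.67 to 5.77) and 3.56 (2.0 to 5.98) times. Isg15 and Psmb8, which lead their lists, were nearer to 1, with Isg15 at 1.15 (0.992 to 1.33) and 1.36 (1.18 to 1.55) and Psmb8 at 1.15 and 1.13. The cells with an Ifit UMI were deeper, with a median of 3765 UMIs against 3170 in Control and 4007 against 3460 in SAP, and 30.7% and 26.6% of them had 2 or more UMIs of other cell type markers, against 25.2% and 24.9%. The part of depth and of these markers in the ratios was not tested.

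Few cells held several of the low type I members, each of which was rarely detected. How many such cells would be found if the members were detected independently was not computed. Of the 19 type I members under the limit, 78.1% of Control and 77.0% of SAP cells had none and 18.2% and 18.7% had 1. Cells with 6 or 7 of them numbered 4 in Control and 6 in SAP. A single SAP cell of the Cd8b1 gate had 12 of them, with 25 UMIs that include 4 of Oasl2, 4 of Rsad2 and 3 of Rtp4. Over the whole type I list this cell had 56 UMIs of 19 members among its 5046 UMIs, or 1.11% of the cell against 0.0758% in the library. Its mitochondrial share was 2.10% and it had 1 UMI of other cell type markers.

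In each library the cell with most type I UMIs was led by Ifi27l2a. The SAP cell with most had 77 type I UMIs of 4765, or 1.62%, and lay in the Cd4 gate. It held 48 UMIs of Ifi27l2a, 14 of Bst2 and 8 of Isg15, with 2 UMIs of Foxp3, the regulatory T cell factor. Another SAP cell of the Cd4 gate had 41 UMIs of Ifi27l2a, none of Foxp3 and 8 of other cell type markers. The Control cell with most had 50 type I UMIs of 7408, 39 of them Ifi27l2a, and lay in the Cd4 gate too. This Control cell had no UMI of Foxp3 and 2 of other cell type markers. A Trdc cell of Control followed, with 45 type I UMIs of 10 members, 22 of them Ifi27l2a and 6 Bst2. For Bst2 the highest SAP cell held 14 of 754 UMIs, or 1.86%, and for Isg15 the highest cells held 23 of 4694 UMIs in Control and 21 of 3994 in SAP. The gamma list peaked at 30 UMIs in a Control cell of 15320 UMIs and at 51 in a SAP cell of 29813 UMIs, 28 of them Psmb8, so both peaks are deep cells with 0.196% and 0.171% of their UMIs in the list, against 0.119% in each library. A SAP cell of the Trdc gate had fewer gamma UMIs but a larger share, 34 of 3943 or 0.862%, led by 10 UMIs of Irf1.

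Cells with their own Ifng transcript, 1252 in Control and 1147 in SAP, differed little in gamma members. The gamma list stood at 1.06 (1.02 to 1.09) and 1.08 (1.05 to 1.12) times the other T cells and the type I list at 1.15 (1.11 to 1.19) and 1.28 (1.23 to 1.32) times. The median ratio was 1.05 and 1.11 over 14 gamma members and 1.09 and 1.12 over 9 type I members. Over all genes compared it was 0.966 in both libraries. No member was 1.5-fold higher in both libraries, against 0.729% of all genes, or as much lower, against 0.693%. Isg15 came closest, at 309 CPM against 229.6 in Control, a ratio of 1.35 (1.27 to 1.43), and at 304 against 189.8 in SAP, a ratio of 1.60 (1.5 to 1.71). Socs1 stood at 1.33 (1.17 to 1.52) and 1.47 (1.3 to 1.66), and Irf1 at 1.13 (1.04 to 1.23) and 1.2 (1.11 to 1.31). Cells with a UMI of a guanylate-binding protein, 2904 and 2835 in number, had 1.14 (1.11 to 1.18) and 1.22 (1.19 to 1.27) times the level of the other 13 gamma members and 1.1 (1.06 to 1.13) and 1.19 (1.15 to 1.24) times that of type I members. The median ratio in these cells was 1.14 and 1.21 over 9 gamma members and 1.21 and 1.36 over 9 type I members. Over all genes compared it was 1.04 and 1.07. There 0 members outside that family were 1.5-fold higher in both libraries, against 0.142% of all genes, and 0 as much lower, against 3.13%. These cells were deeper as well, with a median of 3558 UMIs against 2856 in Control and 3798 against 3076 in SAP.

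The rest of the interferon pathway was followed with 95 other symbols, of which 93 were in the files and 37 could be compared. Transcripts of type I and III interferons were nearly missing, with 4 UMIs in each library over 20 genes. Ifng stood at 185 CPM in Control and 170 in SAP, that is, a SAP over Control ratio of 0.921 (0.877 to 0.967). Of the receptor chains, Ifngr1 was abundant at 516 and 474 CPM, a ratio of 0.919 (0.893 to 0.946), while Ifngr2, its signalling partner, gave 33 and 28 UMIs. Ifnar1 stood at 48.3 and 47.9 CPM and Ifnar2 at 31.2 and 26.4 CPM, ratios of 0.991 (0.902 to 1.09) and 0.846 (0.749 to 0.956). The interferon lambda chain Ifnlr1 had no UMI, and its partner Il10rb gave 266 and 279 UMIs. Irf9, the DNA-binding part of the type I complex, stood at 35.6 and 33.7 CPM, a ratio of 0.946 (0.847 to 1.06).

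Of the 37 pathway genes compared, 2 were 1.2-fold higher in SAP and 1 lower, against the 10.2% and 1.80% of all genes given above. Socs3, another receptor feedback inhibitor, stood at 21.2 and 26.4 CPM, a ratio of 1.24 (1.09 to 1.42). Cxcl10, a chemokine that draws activated T cells, stood at 47.5 and 37.1 CPM, a ratio of 0.782 (0.707 to 0.865), with up to 57 UMIs in 1 Control cell and 29 in 1 SAP cell. Ifitm1, a membrane protein that blocks virus entry, had a ratio of 2.04 (1.75 to 2.37). Its 260 Control UMIs came from 20 cells and its 513 SAP UMIs from 34 cells, with up to 42 and 54 in 1 cell, so a few cells set this ratio and its interval does not hold the spread between cells.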

How the data were processed

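Single T cells of mouse ileum were captured by 10x 3′ chemistry (version 3), per the labels. The deposited values are whole UMI counts per gene and barcode, not normalised. Per the file headers, Cell Ranger 7.1.0 made them, and the submitters' processing notes name mm10 and Seurat. For the annotation and the authors' own cell filters, nothing is given in the sources used here.

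Barcodes with at least 500 UMIs, 300 genes and at most 10% mitochondrial UMIs were kept if they had 2 or more receptor or CD3 UMIs. Possible doublets were kept and no caller was run. UMIs were summed per library and gate (Python 3.11.15, scipy 1.17.1). A gene was compared with at least 20 CPM in 1 library and 50 UMIs over both. Gene ratios past 1.2-fold between libraries, or 1.5-fold in both libraries between cells, were counted as a description of size. Members given in full are those compared and those with 10 or more UMIs in 1 cell; others are said to be picked after their values were seen. Pathway genes named are the receptors, Irf9, Ifng and those past 1.2-fold; 1 other is not reported here. The members and lists were chosen with earlier results of these data known. Ratios and intervals were tested on simulated data. Only scaling factors were taken from edgeR 4.0.16 (TMM) and DESeq2 1.42.0 (median of ratios). Other alternatives changed cell filters, gates, thinning and the cells left out.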

Additional observations from a re-analysis of the deposited data

Results flagged for a closer look

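The SAP over Control ratio fell on opposite sides of 1 in different gates for the type I list and 3 of its members, with counting intervals that leave out 1 on both sides. The difference between gates was not tested, since each library is 1 sample. The type I list was at 0.944 (0.910 to 0.979) in the Trdc gate and 1.14 (1.04 to 1.24) in the Cd4 gate. The Cd4 value was 1.04 (0.945 to 1.15) without cells with 2 or more UMIs of other cell type markers. Without Ifi27l2a the list was at 0.968 (0.932 to 1.01) and 1.12 (0.994 to 1.26), both with intervals that hold 1. Without both Ifi27l2a and those cells, the Cd4 value was 1.17 (1.03 to 1.32).

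Ifi27l2a was at 0.697 (0.608 to 0.798) in the Trdc gate, 0.859 (0.747 to 0.988) in the Cd8b1 gate and 1.17 (1.01 to 1.35) in the Cd4 gate. In the Cd4 gate it was at 0.840 (0.705 to 1.0) without cells with markers of other types and at 1.14 (0.980 to 1.33) without the highest cell of each library, so the higher value in SAP did not hold there. In the Trdc gate the same steps gave 0.714 and 0.706.

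Bst2 was at 0.784 (0.673 to 0.912) in the Trdc gate and 2.51 (1.51 to 4.29) in the Cd4 gate, on 23 Control and 52 SAP UMIs. It was at 2.0 (1.14 to 3.59) in the Cd4 gate without the highest cell of each library.

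Stat2 was at 1.23 (1.02 to 1.49) in the Trdc gate and 0.317 (0.125 to 0.713) in the Cd4 gate, on 28 Control and 8 SAP UMIs.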

How the results depend on the processing

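No paired analysis was possible because each group has 1 library, and no replicate could be left out for the same reason. Over 145 recomputed values, 99 stayed within the counting interval or within 1.5 times the count, 46 moved and 0 changed the sign of a value whose interval leaves out 0. Values are log2 ratios, with reported values of -0.06 (type I) and 0.00 (gamma) between libraries. TMM and median-of-ratios scaling gave -0.14 and -0.15 for type I, -0.08 in both for gamma, -0.27 in both for Isg15, and 2 members past 1.2-fold (Isg15 and Ifi27l2a). With 5 receptor UMIs type I was -0.02, with 1 member past (Stat2). All filtered barcodes gave -0.10 and -0.03 with 1 member (Ifi27l2a), and -0.23 and 0.10 in the Trdc gate (reported -0.28 and 0.07). Without barcodes above 3 times the median UMI count gamma was 0.03, with 1 member past (Ifi27l2a), and 0.04 in the Trdc gate. Without cells with other markers gamma was 0.07, with 4 members past. There the Cd8b1 gate gave 0.32 and 0.05 (reported 0.41 and 0.09), the Cd4 gate 0.75 for type I (reported 0.94) and Ifit cells 0.84 for type I (reported 0.75). Means over cells gave 0.05 for gamma and 2 members past (Ifi27l2a and Gbp8). They gave 0.33 and 0.02 in the Cd8b1 gate, 0.83 for type I in the Cd4 gate, 0.00 and -0.03 for gamma in the Trdc and Cd8a only gates (reported 0.07 and -0.08), and 0.86 for type I in Ifit cells. Without the highest cell of each gene type I was 0.86 in the Cd4 gate. Gates of 2 UMIs gave -0.22, 0.49 and 0.87 for type I in the Trdc, Cd8b1 and Cd4 gates, and 0.18, -0.03 and -0.03 for gamma in the Cd8b1, Cd8a only and Cd4 gates (the last reported at 0.04). Cells with 2 Ifit UMIs gave 1.71 for type I and 0.68 for gamma (reported 0.31). Without the CPM limit and with 20 in place of 50 UMIs over both libraries, 5 members were past 1.2-fold: Ifit1, Ifit2, Oas3, Oasl1 and Mx1. Cells with an Ifit UMI were 1.97% and 2.07% when thinned to 2000 UMIs and 3.19% and 3.49% unthinned, so the share follows depth. Except where the construction shows it (fewer cells, another depth), the cause of a change was not tested. Members with under 50 UMIs in a gate, such as Iigp1, Gbp3 and most Cd4 gate values, are limited by counting error. The values inside gates without the highest cell, without cells with other markers or without Ifi27l2a, and the settings for Isg15 and Ifi27l2a alone, were chosen after seeing the data.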
